A study of Homo sapiens with 12 samples.

Results

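The locus described here holds the microRNA genes MIR425 and MIR191 and the gene DALRD3 in which both lie. Its members were every row of the small RNA table named for either arm of miR-425 or miR-191, together with the row of DALRD3 in the mRNA table. This gave 5 members, 4 mature miRNAs and 1 host gene, out of 6975 features in the deposited tables (1451 small RNAs, 4988 mRNA genes and 536 lncRNA transcripts). The members were chosen by their values under bufotalin against control in these same libraries, so their differences between the groups are given as a description, without a p-value.

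The study profiled xenograft tumours of Hep3B, an established human hepatocellular carcinoma line. One group was given bufotalin, a cardiotonic steroid of toad venom, and the control group was not. Each group had 3 total RNA libraries and 3 small RNA libraries, 12 in all. The labels give no genotype, host animal, dose or time, and they do not say whether replicates were separate tumours or whether a small RNA library and a total RNA library came from the same tumour. The spread between replicates may thus be technical. The labels name no further allele or agent shared by both groups, and no separation of tumour reads from reads of host cells is given in the sources used here.

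A miRNA is cut from a hairpin in a longer primary transcript, first by DROSHA with DGCR8 in the nucleus and then by DICER1 in the cytoplasm. Each hairpin can yield a mature strand from its 5p arm and from its 3p arm, and usually one of them is kept in an Argonaute protein while the other is degraded. When hairpins lie in an intron of a protein-coding gene, the host transcript can be their precursor, and bases 2 to 8 of the mature strand, the seed, direct it to matching sites in mRNAs. miR-191-5p and miR-425-5p have both been reported as raised in hepatocellular carcinoma and other tumours. DALRD3 encodes a protein with an anticodon-binding domain that works with the methyltransferase METTL2 in modifying arginine tRNAs.

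Both hairpins lie on the minus strand of chromosome 3 within DALRD3, which RefSeq places at 49015488 to 49021505 on GRCh38.p14 and the deposited table at 49015488 to 49023508. They are known as intronic. MIR191 spans 49020618 to 49020709, MIR425 spans 49020148 to 49020234, and 383 bases separate them. The mature sequences follow, from the RefSeq miRNA table with the seed in capitals, because they show which targets each strand can pair with. Of the 4 mature members, 3 matched that table by name; the other is hsa-miR-425-5p.

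hsa-miR-191-5p: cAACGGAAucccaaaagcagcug

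hsa-miR-191-3p: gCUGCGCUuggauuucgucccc

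hsa-miR-425-3p: aUCGGGAAugucguguccgccc

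The seeds of these 3 strands differ from each other. No other mature miRNA in the RefSeq table had any of these seeds, and each strand had 1 locus there. The MIR191 hairpin follows with its 2 mature arms in capitals, because its arms differed more in abundance than those of MIR425.

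MIR191 hairpin: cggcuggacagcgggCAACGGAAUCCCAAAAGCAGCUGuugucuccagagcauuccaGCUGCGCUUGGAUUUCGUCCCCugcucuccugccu

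RefSeq lists 2 start sites for DALRD3. The upstream one, at 49021505, lies 796 bases before MIR191 and 1271 bases before MIR425 in the direction of transcription. The downstream one, at 49018580, lies beyond both hairpins, so of these 2 starts only the upstream one gives a transcript that spans them. The deposited locus of DALRD3 reaches 49023508, farther upstream than both, and which start was used in these tumours was not measured. The 300 bases around the upstream start (chr3:49021456-49021755, minus strand, GRCh38.p14; 250 before and 50 after) are shown because the hairpins and DALRD3 can share this promoter. Capitals mark matches to the GC box GGGCGG on either strand.

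DALRD3 promoter, upstream start: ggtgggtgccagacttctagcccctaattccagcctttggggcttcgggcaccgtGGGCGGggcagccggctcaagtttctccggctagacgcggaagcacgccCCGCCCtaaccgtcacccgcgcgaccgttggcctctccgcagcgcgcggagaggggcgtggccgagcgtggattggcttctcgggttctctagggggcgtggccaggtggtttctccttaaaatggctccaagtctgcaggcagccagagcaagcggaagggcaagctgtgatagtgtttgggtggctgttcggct

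This window held 2 GC box matches, a motif present in 44.9% of 34796 promoter windows of the same length. It held 1 match to CCAAT, present in 34.6% of them, and none to CCGGAA (17.2%), CACGTG (7.20%) or TATAAA (11.6%). The window at the downstream start held 2 GC box matches and 4 to CCGGAA. Both strands were searched, and matches that overlap on opposite strands were each counted; in the upstream window none overlapped. A match is only a run of letters, and binding was not measured.

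miR-425-5p, the dominant arm of its hairpin, was counted 20683, 21399 and 18503 times in control replicates 1, 2 and 3. In bufotalin replicates 1, 2 and 3 it was counted 3139, 4403 and 4964 times. Scaled to counts per 1000000 of the library (CPM), these were 4927, 10420 and 9095 CPM in control and 1679, 1318 and 1739 CPM with bufotalin. All 3 treated libraries lay below the lowest control, and control replicate 1 stood well under the other two. The mean fell from 8147 ± 2866 to 1579 ± 227 CPM (SD, n = 3 each). edgeR estimated a log2 fold change (bufotalin over control) of -2.21 (SE 0.36), a 4.64-fold lower level. Leaving out each library in turn gave -2.47 to -1.95. By abundance it ranked 17 to 35 among the features of a control library and 58 to 71 in a treated one.

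miR-425-3p, the other arm, is much rarer. Its level, from 88 to 561 counts per library, was 134, 166 and 66.4 CPM in control against 58.3, 57.2 and 30.8 CPM with bufotalin. The groups did not overlap, but control replicate 3 lay only just above the highest treated libraries. Its means were 122 ± 50.6 and 48.8 ± 15.6 CPM (SD, n = 3 each), with a log2 fold change of -1.14 (SE 0.33).

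miR-191-5p, the dominant arm of the other hairpin, had 29202, 10090 and 5618 counts in control against 8705, 14151 and 6173 with bufotalin. In CPM these were 6957, 4913 and 2761 in control against 4655, 4237 and 2162 with bufotalin. The groups overlapped, since control replicate 3 lay below 2 of the treated libraries. The means were 4877 ± 2098 and 3685 ± 1335 CPM (SD, n = 3 each). The log2 fold change of -0.26 (SE 0.34) was smaller than its error, and it was 0.11 without control replicate 1. miR-191-5p held rank 28 to 35 in control and 35 to 48 in treated libraries.

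miR-191-3p was near the limit of counting, with 49, 11 and 6 counts in control and 5, 12 and 6 with bufotalin. Over the 6 libraries, 3 counts, the limit that a count of 0 allows, correspond to 0.715 to 1.60 CPM (counting error only). Its 11.7, 5.36 and 2.95 CPM in control overlapped with the 2.67, 3.59 and 2.10 CPM of the treated libraries, and only control replicate 1 stood apart. It did not pass the minimum count for testing.

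Of the 4 mature members 3 could be tested, and edgeR called 1 of them lower, miR-425-5p; among all 477 tested features 3.56% were called lower. Both arms of miR-425 had all treated libraries below all controls, as did 19.5% of the tested features. Because the members were chosen on this contrast, nothing is read from these counts. With the CPM of the 4 strands added up, control libraries had 12029, 15504 and 11926 CPM and treated libraries 6395, 5617 and 3934 CPM. The sum thus did not overlap between groups and was 2.47-fold lower on average with bufotalin (13153 to 5315 CPM). It follows miR-425-5p above all, whose mean went from 8147 to 1579 CPM. miR-191-5p went from 4877 to 3685 CPM with overlap, so the sum does not show a fall of every strand.

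**Figure D1:**
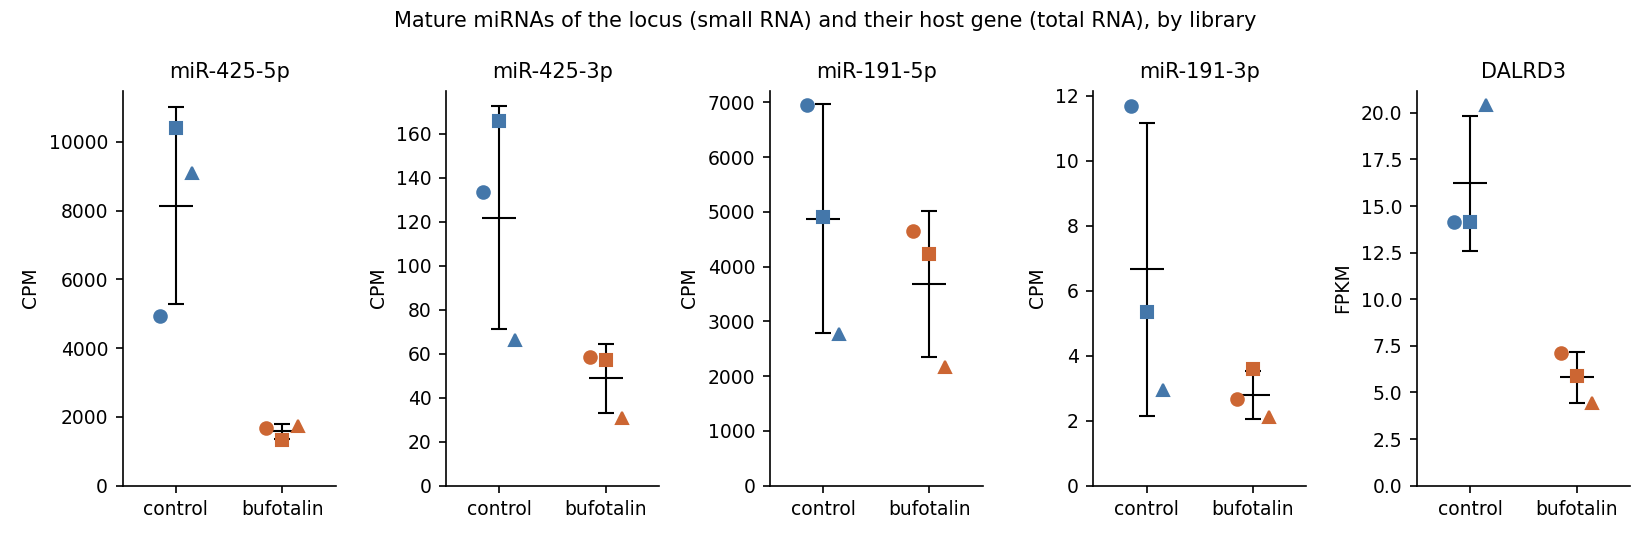
Level of each mature miRNA (CPM, small RNA libraries) and of the host gene DALRD3 (FPKM, total RNA libraries) in control and bufotalin libraries. Each point is 1 library (circle, square and triangle for replicates 1, 2 and 3), and bars give the mean and SD of 3; miR-425-5p, miR-425-3p and DALRD3 do not overlap between groups, while both arms of miR-191 do.

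Ratios within a library do not depend on how libraries are scaled. The ratio of miR-425-5p to miR-191-5p counts was 0.708, 2.12 and 3.29 in control replicates 1, 2 and 3 and 0.361, 0.311 and 0.804 in bufotalin replicates 1, 2 and 3. miR-425-5p was the more abundant of both in 2 control libraries and in no treated library. On the log2 scale the mean moved from 0.77 ± 1.14 to -1.16 ± 0.74 (SD, n = 3 each), a difference of -1.93. The groups overlapped, because control replicate 1 lay below bufotalin replicate 3. Omitting single libraries gave differences of -2.56 to -1.45.

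The arms of a hairpin can also be set against each other. For miR-425, the 5p to 3p ratio was 36.9, 62.9 and 137 in control, against 28.8, 23.1 and 56.4 with bufotalin. The log2 ratio differed by -1.03 between group means of 6.09 ± 0.95 and 5.06 ± 0.67 (SD, n = 3 each), and the groups overlapped. The difference was -0.53 without control replicate 3 and -1.48 without control replicate 1. For miR-191, that ratio was 596, 917 and 936 in control, against 1741, 1179 and 1029 with bufotalin. These groups did not overlap (log2 difference 0.64), but each ratio rests on only 5 to 49 counts of miR-191-3p.

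**Figure D2:**
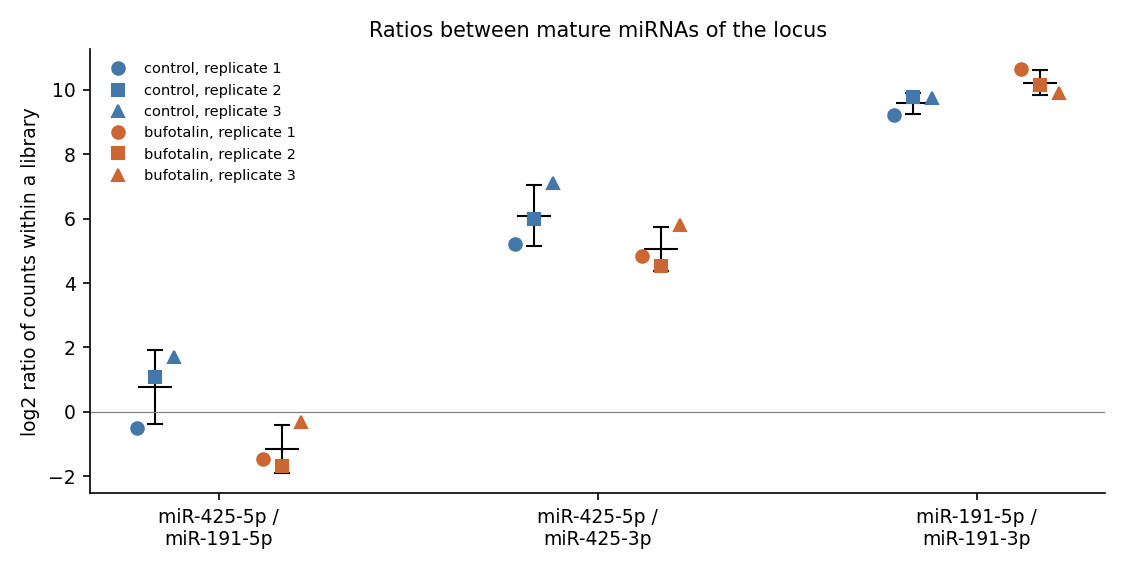
Log2 ratio of counts between mature miRNAs of the locus in each small RNA library (0.5 added to each count), with mean and SD of 3 libraries per group. The miR-425-5p to miR-191-5p ratio lies around 0.77 in control and -1.16 with bufotalin, and the groups meet at control replicate 1 and bufotalin replicate 3.

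One small RNA library stood apart. Bufotalin replicate 2 had 34779 CPM of the erythroid miR-451a, against 139 to 404 CPM in the other 5, and 94.9 CPM of the leukocyte miR-223-3p, against 0.983 to 2.43 CPM. The leukocyte miR-142-5p (86.5 CPM against 0.983 to 6.42) and the muscle miR-1-3p (418 against 50.6 to 153 CPM) were highest there too. The endothelial miR-126-3p had 1585 to 2237 CPM and the muscle miR-133a-3p 0 to 2.40 CPM. Control replicate 3 stood apart in the hepatocyte miR-122-5p, with 116 CPM against 15.4 to 36.4 CPM in the other 5. Without control replicate 3 the log2 fold change was -1.95 for miR-425-5p, -1.37 for miR-425-3p and -0.49 for miR-191-5p. Without bufotalin replicate 2 it was -2.07 for miR-425-5p, -1.25 for miR-425-3p and -0.36 for miR-191-5p. The line could not be checked against its protein-coding markers, since AFP, ALB, APOA1, TTR and GPC3 are not among the genes of the mRNA table, which by its name lists only genes the authors found different. Small RNA libraries held 1869893 to 4197636 counts. In bulk tumour RNA, fewer cells with a transcript and less of it per cell cannot be told apart.

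The pattern of miR-425-5p over the 6 libraries was most like that of miR-345-5p (Pearson r of log2(CPM + 1) 0.97, among 363 other miRNAs with a mean of at least 10 CPM). miR-197-3p, miR-7974, miR-574-3p and miR-450b-5p came next, each with r of 0.97. Their log2 fold changes were -1.15, -2.30, -2.35, -1.87 and -0.87 in that order. The most opposed were miR-550b-3p (r = -0.99), miR-361-3p (-0.99) and miR-106b-3p (-0.98), with log2 fold changes of 0.70, 1.00 and 1.01. For miR-191-5p the most alike were miR-181c-3p (0.99), miR-330-3p (0.98), miR-339-5p (0.97), miR-10b-3p (0.95) and miR-130b-5p (0.95). The most opposed to it were miR-1293, miR-132-3p and miR-129-1-3p (-0.95, -0.95 and -0.93). Between the members, r was 0.17 for miR-425-5p with miR-191-5p, 0.71 for miR-425-5p with miR-425-3p and 0.78 for miR-191-5p with miR-425-3p. The points share library depth and treatment, and these values are descriptions.

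By mean CPM over all libraries miR-425-5p was 30th and miR-191-5p 34th of the 1451 features. miR-425-5p (4863 CPM) stood between miR-30c-5p (5805 CPM) and miR-17-5p (4570 CPM). miR-191-5p (4281 CPM) stood between miR-103b (4362 CPM) and miR-221-3p (3972 CPM). miR-425-3p was 203rd, between miR-200b-3p and miR-31-3p, and miR-191-3p 453rd, between miR-98-3p and miR-628-3p. These neighbours differ by less than the spread of the members between libraries.

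The host gene DALRD3 had 14.1, 14.1 and 20.4 FPKM (fragments per kilobase per 1000000 fragments) in control replicates 1, 2 and 3. In bufotalin replicates 1, 2 and 3 it had 7.14, 5.91 and 4.41 FPKM. Every treated library lay below every control, and control replicate 3 was the highest. DALRD3 fell from 16.2 ± 3.61 to 5.82 ± 1.37 FPKM (SD, n = 3 each). The log2 fold change on log2(FPKM + 1) was -1.34 (SE 0.19), which is 2.53-fold lower with the added 1 included. With each library left out it was -1.48 to -1.17. The mean FPKM itself was 2.79-fold lower. limma called this 1 host gene lower, as it did 48.8% of the 4273 genes tested, and 48.7% of them had all treated libraries below all controls. The authors had selected the table on these samples, so the call adds nothing. Of the stroma markers fixed for a check of host cells, COL1A1 had 11.4 to 13.3 FPKM in control and 6.29 to 9.09 with bufotalin, COL6A1 had 28.0 to 30.7 and 5.46 to 7.35 FPKM, and PECAM1 and PTPRC are not in the table. Their part in the DALRD3 value was not tested. The host change of -1.34 lay between those of miR-425-3p (-1.14) and miR-425-5p (-2.21), and beyond that of miR-191-5p (-0.26). These come from different libraries and scales, and their difference was not tested.

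Over the 6 total RNA libraries, the genes whose log2(FPKM + 1) followed DALRD3 most closely included CAPG, an actin filament capping protein gene (r = 0.999), RPS4X, a ribosomal protein gene (0.998), TMEM161A (0.996) and PSMD10, which encodes a proteasome chaperone (0.996). They were taken from 4021 candidates whose mean reached 1 FPKM. Their log2 fold changes were -1.85, -0.78, -1.13 and -0.86. All 4 were called lower, as were 48.8% of all genes tested. They were picked for their likeness to DALRD3, which fell without overlap, so these calls follow from the choice.

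Genes around DALRD3 were taken from the mRNA table, by a first listed base within 500 kb of that of DALRD3. RefSeq lists 33 other protein-coding genes in this window, and 13 were in the table. NDUFAF3, an assembly factor of respiratory complex I, has its first listed base 4.97 kb from the first listed base of DALRD3, lies on the plus strand and overlaps DALRD3 by 3050 bases in the deposited loci. It had 19.5, 16.6 and 17.8 FPKM in control and 4.91, 5.07 and 5.02 FPKM in treated libraries, without overlap. limma gave a log2 fold change of -1.66 (SE 0.11, adjusted p = 2.08e-06). Genes of this table had been selected by the authors on the same libraries. This p-value, like those of the other genes below, is thus a description and not a fresh test. Whether counting used strand is not given in the sources used here, so reads of NDUFAF3 and DALRD3 may be shared. The deposited locus of NDUFAF3 (49020459 to 49029706) also covers MIR191.

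IMPDH2, the inosine monophosphate dehydrogenase gene of guanine nucleotide synthesis, fell from 186 ± 8.04 to 108 ± 9.29 FPKM (limma log2 fold change -0.78, SE 0.12, adjusted p = 0.000156). Its deposited locus lies within that of NDUFAF3. QARS, glutaminyl-tRNA synthetase, fell from 69.0 ± 8.18 to 27.9 ± 6.35 FPKM (-1.29, SE 0.16, limma adjusted p = 5.83e-05). The laminin gene LAMB2 (-0.70) and CCDC71 (-1.30) fell as well, but LAMB2 had -0.08 and no call under quantile normalization. On this side, toward higher coordinates, 5 of 6 genes were called lower and none higher. The sixth, GPX1, had 69.8, 214 and 50.3 FPKM with bufotalin and 79.2, 56.6 and 58.4 FPKM in control; bufotalin replicate 2 alone stood apart.

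Toward lower coordinates, 4 of 7 genes were called higher and 1 lower. ARIH2, a ubiquitin ligase gene and the only one of this side within 100 kb, was at 31.7 ± 3.00 FPKM in control and 34.0 ± 0.120 FPKM with bufotalin, and was not called (log2 fold change 0.10, limma adjusted p = 0.376). It had -0.10 under quantile normalization and was called higher, with 0.27, once libraries were set to equal medians. PRKAR2A, a protein kinase A regulatory subunit gene, rose (0.59), as did IP6K2 (0.39), COL7A1 (1.06) and UCN2 (1.10). The IP6K2 call ended without control replicate 2 or bufotalin replicate 1 or 3. NCKIPSD fell (-0.94), and UQCRC1 had 0.24 without a call (-0.11 under quantile normalization, and called higher with equal medians or when bufotalin replicate 3 was left out). Over all 13 neighbours the median log2 fold change was 0.10 (-0.10 under quantile normalization), against 0.13 over all genes tested, of which 44.3% were called higher and 48.8% lower. Which neighbours were missing depends on the authors' selection.

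**Figure D3:**
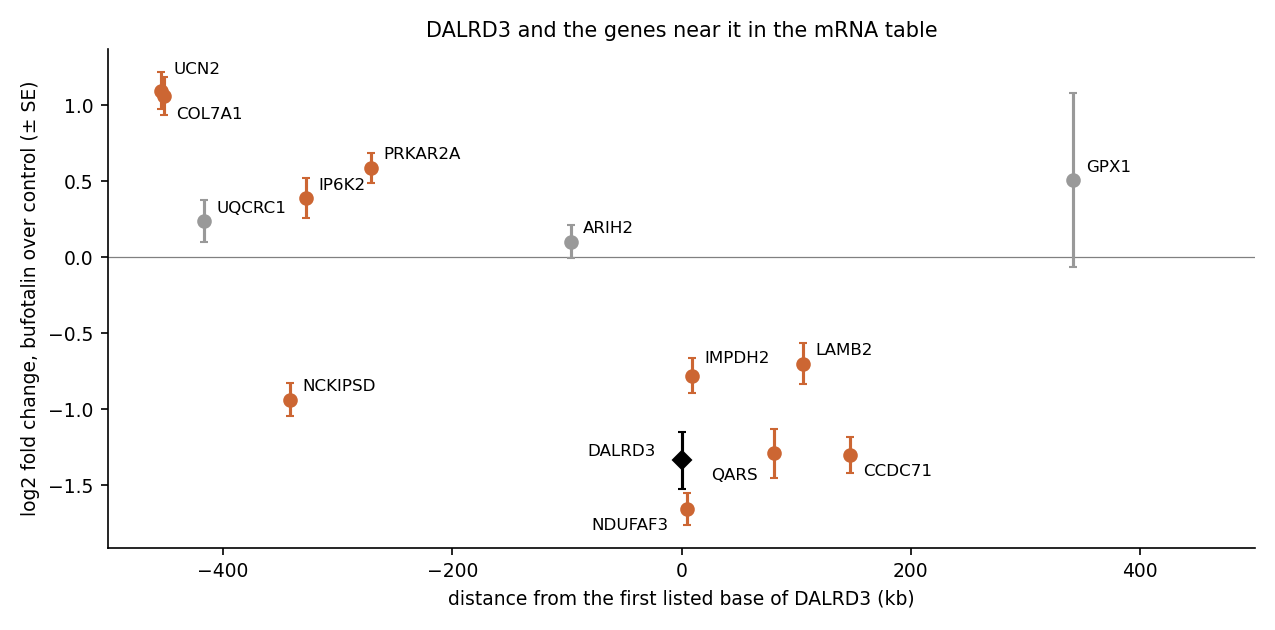
Log2 fold change of bufotalin over control (limma on log2(FPKM + 1), ± SE) of DALRD3 (diamond) and the 13 genes of the mRNA table that start within 500 kb of it, against distance in kb. Orange points passed the test and grey ones did not; the 5 genes up to 147 kb toward higher coordinates lie between -1.66 and -0.70.

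Genes of miRNA biogenesis and action were examined because both hairpins pass through the same enzymes. Of 33 listed genes 8 were in the mRNA table; 7 were called higher and none lower (median log2 fold change 0.55), where 44.3% of all genes tested were called higher and 48.8% lower (median 0.13). DROSHA, DGCR8 and DICER1 were not among them. TARBP2, the DICER1 partner, rose from 11.5 ± 0.278 to 17.6 ± 2.02 FPKM (0.56, SE 0.12, limma adjusted p = 0.00121). AGO2, the slicing Argonaute, rose from 22.1 ± 2.08 to 38.1 ± 9.11 FPKM (0.74, SE 0.16). DDX5, a helicase of the DROSHA complex (0.53), and TUT7, a terminal uridylyltransferase (0.59), rose too. KHSRP, TNRC6A and SRRT had 0.49, 0.39 and 0.36. Under quantile normalization 4 of the 7 calls were kept, and those of DDX5, KHSRP and SRRT ended. In all, the TNRC6A call ended in 5 settings and the SRRT call in 7. NCBP2, a cap-binding subunit, had 0.71 (SE 0.46) and no call, but was called without bufotalin replicate 1.

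DALRD3 itself belongs to tRNA modification. Of 27 listed genes of tRNA methylation and other tRNA modification and charging, 8 were in the table and 6 were called higher, with a median of 0.62 over the 8, against 44.3% and a median of 0.13 over all genes tested. Its partners METTL2A and METTL2B were not in the table. TRMT61A, the catalytic subunit of an adenosine tRNA methyltransferase, rose from 4.70 ± 0.169 to 11.5 ± 0.727 FPKM (1.13, SE 0.10, limma adjusted p = 1.03e-05). TRMT1 (0.77) and FTSJ1 (0.73), also tRNA methyltransferase genes, rose. DALRD3 (-1.34) thus moved opposite to most of these genes. The CARS value of 0.31 was called, but the call ended in 4 settings. NSUN2 had 0.26 without a call, -0.04 under quantile normalization and a call with equal medians.

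Genes that other work has reported as targets of the 2 dominant strands were also looked up. Of 11 listed for miR-425-5p, 3 were in the table, with 1 called higher, 1 lower and 1 not called (median log2 fold change 0.27). Of these, SCAI and CCND1 are described. SCAI, a repressor of MRTF signalling, fell from 8.43, 8.61 and 8.64 FPKM in control to 3.88, 3.96 and 4.16 FPKM (-0.93, SE 0.10, limma adjusted p = 2.46e-05). The cyclin gene CCND1 had 41.5 ± 5.29 and 50.3 ± 4.25 FPKM (0.27, SE 0.13) and was not called, but was in 4 other settings. Among 13 listed for miR-191-5p, 7 were in the table and 6 were tested, with 4 called higher and 2 lower (median 0.51), against 44.3% higher and 48.8% lower over all genes tested (median 0.13). The cell cycle kinase gene CDK6 rose from 22.3 ± 0.833 to 81.9 ± 13.0 FPKM (1.82, SE 0.13, limma adjusted p = 3.56e-06). CEBPB (0.75) and BDNF (0.59) rose, and EGR1, an immediate early gene, fell from 4.92 ± 0.611 to 0.714 ± 0.286 FPKM (-1.80, SE 0.15). SATB1 had -0.59, but 0.09 and no call under quantile normalization. BASP1 had 0.42, and its call ended in 6 settings. TMOD2 lay below the minimum mean of 0.5 FPKM and was not tested. Listed targets of miR-191-5p thus went in both directions, and target sites were not examined.

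To set DALRD3 beside other hosts, a list of textbook host genes with miRNAs inside them was used. It left 13 hosts in the mRNA table with 22 tested mature miRNAs. For 20 of the miRNAs the position inside the host was checked against RefSeq; for both arms of miR-339 in C7orf50 it was not. Of the hosts 7 were called lower, and 12 of their 13 miRNAs had log2 fold changes below 0 (median -0.81), with 2 called lower. The other 6 hosts were called higher, and their 9 miRNAs had 4 values above 0 and 5 below. In all 16 of 22 miRNAs had the sign of their host. Over all tested features, 3.56% of small RNAs were called lower, with a median log2 fold change of -0.04. Of all genes tested, 48.8% were called lower and 44.3% higher. Many of the 22 miRNAs are the 2 arms of 1 hairpin and do not count separately, and whether miRNAs follow their hosts was not tested.

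Among the largest miRNA changes, miR-574-3p fell (-1.87, SE 0.35) inside FAM114A1 (-1.69), and miR-1180-3p (-1.33, SE 0.27) inside B9D1 (-2.46), a gene of the ciliary transition zone. miR-152-5p inside COPZ2 had -1.40 beside -1.41 for the host, miR-342-3p inside EVL had -1.26 beside -0.89, and miR-589-5p had -1.15 although its host FBXL18 rose (0.83). The smallest were miR-140-5p in WWP2 (-0.02 beside 0.38), miR-126-3p in the endothelial gene EGFL7 (-0.15 beside -1.84) and miR-877-5p in ABCF1 (-0.20 beside 0.53). Arms of 1 hairpin also differed elsewhere: inside AATK (-1.28), miR-338-5p had -0.88 and miR-338-3p 0.93. miR-191-5p beside DALRD3, miR-126-3p beside EGFL7 and miR-342-5p (-0.30, SE 0.52) beside EVL had values smaller than their errors beside hosts that fell. The miR-425-5p value (-2.21) lay below all 22 of the list, but the members were chosen on this contrast, so nothing is read from this. The hosts were in the table because the authors selected them, and the differences between pairs were not tested.

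**Figure D4:**
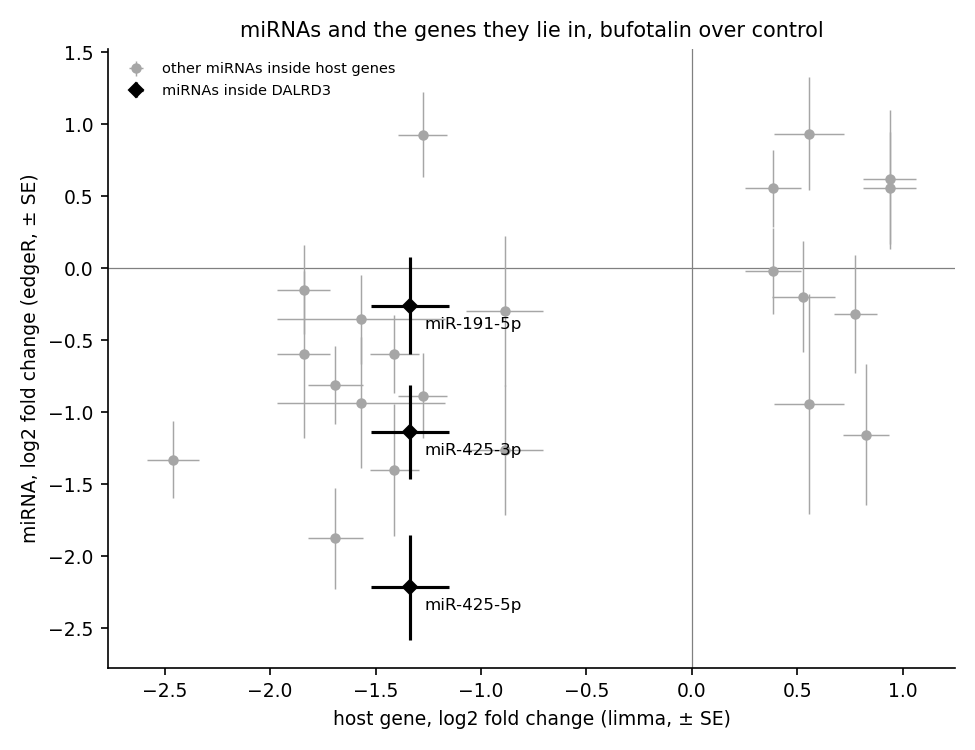
Log2 fold change of mature miRNAs (edgeR, ± SE) against that of the gene they lie in (limma on log2(FPKM + 1), ± SE), for 22 miRNAs of 13 other hosts (grey) and 3 miRNAs of DALRD3 (black diamonds). miR-425-5p lies at -2.21 and miR-191-5p at -0.26, both beside a host value of -1.34.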

How the data were processed

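Tumour xenografts of Hep3B were profiled as total RNA and as small RNA, with 3 control and 3 bufotalin libraries each, grouped by their titles. The deposited small RNA table gives read counts per mature miRNA and TPM values; the deposited TPM equalled counts per 1000000 of the column total (largest difference 4.37e-10), which is the CPM used here. The deposited mRNA and lncRNA tables give FPKM values for features that, by the tables' names, the authors found different. The submitters' processing notes name CASAVA 1.8, fastp, HISAT2 2.0.5, featureCounts 1.5.0-p3, DESeq2 1.20.0 and GRCh38, without their roles. Depth behind FPKM is unknown.

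The members and lists were chosen with earlier results of these data known. Counts were fitted with edgeR 4.0.16 (TMM, filterByExpr, robust quasi-likelihood F test) and FPKM with limma 3.58.1 (log2(FPKM + 1), mean of at least 0.5 FPKM, trended robust eBayes), each on the whole table. All p-values are two-sided and were adjusted by Benjamini-Hochberg over the table, with calls at 0.05. Because the authors had selected the mRNA table on these samples, limma p-values and calls are descriptions, and their adjustment does not control error. Both fits were tested on simulated data, with the same noise setting for every feature and no selection on the contrast. The deposited mRNA table was selected, so the simulation does not cover that case. TMM factors were 0.810 to 1.32. Alternatives were DESeq2 1.42.0, other scalings, filters and pseudocounts, each library left out, and the replicate number as a block. Genes were named by rule: all members, neighbours within 100 kb, the 5 most and 3 least alike miRNAs (5 most alike genes for DALRD3), up to 4 called members of each list by smallest p and up to 3 not called with a mean of at least 1 FPKM, the 5 largest and 3 smallest changes among miRNAs inside hosts, and the features next to each member in abundance; others were chosen after their values were seen. A few genes that the rule names are not reported here. List genes were matched through Ensembl identifiers. R 4.3.3, Python 3.11.15, numpy 2.4.6, pandas 2.3.3 and matplotlib 3.10.9 were used.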

Additional observations from a re-analysis of the deposited data

Results flagged for a closer look

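Within 500 kb of DALRD3 the lncRNA table held 1 transcript, PFKFB4-209 of the gene PFKFB4 (chromosome 3, 48549864 to 48562015). It is shown because a signal appeared in a table the report does not otherwise use: it was listed at 0 FPKM in all 3 control libraries and at 0.384, 0.286 and 0.371 FPKM in bufotalin replicates 1, 2 and 3 (mean 0.347 ± 0.053, SD, n = 3). Selection of its transcripts used the same libraries, so no test is given. No formal search for outlying samples was made in groups of 3 libraries. Small RNA libraries that stood apart were seen through the cell type markers, and each library was left out in turn.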

How the results depend on the processing

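edgeR called 27 miRNAs (124 at an unadjusted p under 0.05), DESeq2 62, and 3 with the replicate number as a block; with each library left out the count was 6 to 40, lowest without bufotalin replicate 3 (6), 2 (8) and 1 (13) and highest without control replicate 1. The miR-425-5p call was kept in these settings except the replicate block (log2 fold change -2.16, against -2.21). miR-425-3p was called by DESeq2 (-1.09) and without control replicate 3 (-1.37), and miR-191-5p in no setting. Without TMM, by library totals, the values of miR-425-5p, miR-425-3p and miR-191-5p were -2.37, -1.32 and -0.40, and the median of all tested features moved from -0.04 to -0.20. With the blood cell miRNAs removed before the fit, an alternative chosen after seeing the data, miR-425-5p had -2.22 and 30 features were called. miR-191-3p was fitted only without the count filter (-1.19, SE 0.62) or in smaller sets of libraries.

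DALRD3 was called lower in every setting, with values from -1.48 to -1.16; -1.16 came under quantile normalization and -1.47 with a pseudocount of 0.1. The median of all tested genes was 0.13, 0.31 after scaling to equal medians, -0.14 with no FPKM minimum, and -0.17, -0.06 and -0.27 without bufotalin replicates 1, 2 and 3. Among the lists, biogenesis genes called higher went from 7 to 4 under quantile normalization. The labels do not say that a replicate number marks a tumour, so the numbers were not taken as pairs. Same-numbered small RNA libraries had correlated deviations of 0.13, 0.03 and 0.36, and total RNA libraries of -0.02, 0.03 and -0.05. Small RNA libraries of unlike number had -0.32 to 0.22. With 3 libraries per group, these values cannot decide whether the numbers mark pairs. Depth limits miR-191-3p, with 5 to 49 counts per library.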
